A study of Homo sapiens with 8 samples.

Results

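Endothelial cells keep blood fluid and set the calibre of vessels. In EA.hy926 cells, 9 genes with these tasks were followed after the deletion of an enhancer: THBD, PROCR and TFPI, which restrain coagulation, F3, which starts it, PLAT, PLAU and PLAUR, which turn plasminogen into plasmin at the cell surface, and NOS3 and EDN1, which relax and constrict the vessel wall. The members were chosen by name, and for each the transcript with the highest mean FPKM of the 8 libraries was kept. All 9 were among the 27946 genes of the deposited table, with 26 transcripts in all, and all 9 were among the 13790 genes tested.

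EA.hy926 is an immortal hybrid line made by fusing human umbilical vein endothelial cells with A549, a lung carcinoma line, so it carries chromosomes of both. Total RNA without ribosomal RNA was sequenced in 2 libraries of control cells, in 3 clonal lines that lack E2 (ΔE2), an enhancer studied for its activity in endothelial cells, and in 3 clonal lines that lack SE12313-b (hence ΔSE12313-b), another element of the same super-enhancer. The study deleted SE12313-b as a negative control because it was inactive in the reporter assay, but reports that both deletions changed expression in much the same way. The clones were made with Cas9 ribonucleoprotein and guide RNAs, each library of a deletion is a clone of its own, and no group had any other treatment. Controls of the proliferation assay were given guide RNAs and grown beside the clones, but the origin of the control RNA is not stated. Being derived from 1 cell and carrying a deletion therefore cannot be told apart in the comparisons with the controls, whereas the comparison of ΔE2 with ΔSE12313-b sets clones against clones.

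Thrombomodulin (THBD) binds thrombin and turns it towards protein C, which the endothelial protein C receptor (PROCR) presents, and tissue factor pathway inhibitor (TFPI) blocks the complex of tissue factor (F3) and factor VII. Tissue plasminogen activator (PLAT) and urokinase (PLAU), the latter held by its receptor (PLAUR), dissolve fibrin through plasmin. Endothelial nitric oxide synthase (NOS3) makes the gas that relaxes smooth muscle, and endothelin 1 (EDN1) is one of the strongest constrictor peptides known.

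In both deletions EDN1 rose more than 10-fold, and THBD and TFPI fell about 4-fold or more. NOS3 rose and PLAUR fell by less than 2-fold in both, and PROCR rose by less than 2-fold with an adjusted p that did not pass under several alternatives. PLAT was the member that went opposite ways, higher in ΔE2 and lower in ΔSE12313-b. PLAU fell by less than 2-fold in ΔE2, with an adjusted p that did not pass under several alternatives. In ΔSE12313-b the change of PLAU did not pass, except after centring or quantile normalization. F3 was near the lower end of what could be measured. A gene is said to have risen or fallen where limma gave an adjusted p under 0.05 (Benjamini-Hochberg over all genes tested), and is called where it also changed at least 2-fold.

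By that rule 3 of the 9 genes were called in ΔE2, where 19.6% of all genes tested were, and 3 in ΔSE12313-b, where 22.6% of all genes were. Without the fold limit, 8 of 9 passed in ΔE2 beside 54.1% of all genes, and 7 of 9 in ΔSE12313-b beside 59.4%. Between the deletions 2 of 9 were called beside 4.23% of all genes, the same 2 passed at any fold beside 26.0%, and their libraries did not overlap, as was so for 40.8% of all genes. The control libraries did not overlap with the clones for 9 of 9 genes in ΔE2 and 7 of 9 in ΔSE12313-b, beside 73.5% and 75.3% of all genes. The median log2 change of the 9 genes was 0.57 in ΔE2 and -0.11 in ΔSE12313-b, beside 0.14 and 0.27 over all genes tested.

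Library size ranged from 12067550 to 19101142 reads, with 7802376 to 13374180 reads on genes. The 2 control libraries differed by little more than counting noise (a chi-square of 1.19 per degree of freedom over genes), whereas pairs of clones of 1 deletion gave values from 4.05 to 23.4. The sources do not say whether the controls came from separate cultures, so p-values may rest partly on technical spread. ΔE2 replicate 2 and ΔSE12313-b replicate 3 stood apart from the other clones of their deletion. The study gives NUDT7 as the gene nearest to both deletions and ADAMTS18 as the one that this super-enhancer contacts and regulates. ADAMTS18 had an FPKM of 0.682 to 0.859 in the controls, 0.0870 to 0.149 in ΔE2 and 0.128 to 0.232 in ΔSE12313-b. Endothelial markers were present, with 11 of 14 at a mean FPKM of at least 1. CDH5 (VE-cadherin) was at 103, 99.2 and 77.3 on average in control, ΔE2 and ΔSE12313-b and PECAM1 at 5.98, 13.8 and 26.0, while KDR stayed at 0.292 or below and CLDN5 was listed at 0 throughout.

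Promoter stretches are shown for the members with the largest rise and fall among those with a window, and for NOS3, the counterpart of EDN1. They were taken from RefSeq on GRCh38.p14, a build other than that of the expression table, and hold the 250 bases before a transcription start, 5′ to 3′ on the gene's strand. RefSeq windows were used for 7 of the 9 genes, and none was used for THBD or PLAT. This does not show that RefSeq lacks a window for either gene. Capitals mark matches on either strand to GATAA for GATA factors, TGANTCA for AP-1, CACCC for KLF factors, GGGCGG for SP1 and TATAAA for the TATA box, and the marked matches do not overlap each other.
EDN1, chr6:12290111-12290360, plus strand: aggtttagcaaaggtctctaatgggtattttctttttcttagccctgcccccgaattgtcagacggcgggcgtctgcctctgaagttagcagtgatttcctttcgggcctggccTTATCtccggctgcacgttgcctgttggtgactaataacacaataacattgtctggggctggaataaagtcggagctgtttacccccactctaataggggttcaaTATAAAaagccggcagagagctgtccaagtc
NOS3, chr7:150993532-150993781, plus strand: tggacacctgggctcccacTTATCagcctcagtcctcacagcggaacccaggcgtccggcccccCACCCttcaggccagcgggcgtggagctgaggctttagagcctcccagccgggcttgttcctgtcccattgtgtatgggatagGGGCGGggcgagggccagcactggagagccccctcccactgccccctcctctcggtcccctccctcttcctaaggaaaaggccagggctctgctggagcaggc
TFPI, chr2:187554436-187554685, minus strand: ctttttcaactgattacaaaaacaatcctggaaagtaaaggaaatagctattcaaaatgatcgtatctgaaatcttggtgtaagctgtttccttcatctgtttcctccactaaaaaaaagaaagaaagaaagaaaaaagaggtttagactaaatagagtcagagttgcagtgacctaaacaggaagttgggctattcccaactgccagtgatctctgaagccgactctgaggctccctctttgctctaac

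The EDN1 stretch, the third of 3 windows for this gene, holds TATAAA 31 bases before the start and the reverse complement of GATAA 136 bases before it. These letters occur in 10.7% and 20.5% of 35097 windows of the same length. The NOS3 stretch, window 1 of 2 for this gene, has no TATAAA and a G+C content of 66.8%. It holds GGGCGG 103 bases before the start (42.6% of windows), CACCC at 186 bases (54.7%) and the reverse complement of GATAA at 231 bases. Window 2 of NOS3, at chr7:150993554-150993803, holds GGGCGG at 125 bases and CACCC at 208 bases but no match to GATAA. None of the letters searched was found in the TFPI stretch, with a G+C content of 38.4%. Of the windows not printed, that of PLAUR holds TGAGTCA 186 bases before the start, a match to the AP-1 letters that 6.6% of windows contain, and that of F3 holds 2 such matches. A match is a description of letters and was not tested as a binding site.

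Thrombomodulin was among the steadiest changes. The THBD transcript (NM_000361, chr20:23026270-23030301, GRCh37, minus strand) had an FPKM of 96.7 and 95.4 in the controls, 26.2, 21.5 and 23.0 in ΔE2, and 23.0, 23.4 and 19.6 in ΔSE12313-b. Each of the 6 clones was far below both controls, and the clones of the 2 deletions overlapped. The fall was 4.08-fold in ΔE2 (log2 change -2.03, SE 0.11, limma adjusted p = 4.75e-06) and 4.36-fold in ΔSE12313-b (log2 change -2.13, SE 0.11, limma adjusted p = 3.22e-06). Between the deletions the difference was 0.10 on the log2 scale, with a 95% interval from -0.13 to 0.32 (limma adjusted p = 0.505).

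The endothelial protein C receptor went the other way. PROCR (NM_006404, chr20:33759740-33765165, plus strand) had an FPKM of 86.6 and 91.0 in the controls, 124, 219.6 and 150.3 in ΔE2, and 143, 125 and 207 in ΔSE12313-b. Clones and controls did not overlap, but the clones of 1 deletion differed among themselves by up to 1.78 times. The log2 rise was 0.85 in ΔE2 (SE 0.27, limma adjusted p = 0.0280) and 0.80 in ΔSE12313-b (SE 0.27, limma adjusted p = 0.0317). The highest PROCR in each deletion was in the clone that stood apart. Without ΔE2 replicate 2 the log2 change was 0.62 (limma adjusted p = 0.0541), and without ΔSE12313-b replicate 3 it was 0.59 (limma adjusted p = 0.0704). Nor did PROCR pass without either control (limma adjusted p from 0.105 to 0.136), without ΔE2 replicate 3 in ΔE2 (0.0555) or without ΔSE12313-b replicate 1 in ΔSE12313-b (0.0535). With each library centred the values were 0.69 and 0.51, and with quantile normalization 0.41 and 0.24, none of which passed. THBD and PROCR, the receptors for thrombin and for protein C in the same reaction, thus had nearly equal levels in the controls (means of 96.0 and 88.8) and a PROCR mean of 165 beside a THBD mean of 23.6 in ΔE2.

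TFPI had the highest level of the 9 genes in the controls, above 99.2% of the genes tested, and lost more FPKM than any other member. The kept transcript (NM_001032281, chr2:188343306-188419232, minus strand) was at 374 and 371 in the controls, at 73.2, 135 and 77.6 in ΔE2, and at 64.4, 55.5 and 83.5 in ΔSE12313-b. No clone came near the controls, and the highest clone was again ΔE2 replicate 2. The fall was 4.07-fold in ΔE2 (log2 change -2.02, SE 0.27, limma adjusted p = 0.000487) and 5.56-fold in ΔSE12313-b (log2 change -2.48, SE 0.27, limma adjusted p = 0.000139). Without ΔE2 replicate 2 the log2 change in ΔE2 was -2.30, and without ΔSE12313-b replicate 3 that in ΔSE12313-b was -2.64. The difference between the deletions was 0.45 on the log2 scale, with an interval from -0.10 to 1.01 (limma adjusted p = 0.205).

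The table lists 6 TFPI transcripts, which share reads. The 2 short ones, among them the kept transcript, end at 188343306, and the 4 long ones reach 188328957. NM_006287, a long one, was at 259 and 264 in the controls and between 44.3 and 99.6 in the clones. The log2 change of the 6 transcripts lay between -2.02 and -1.96 in ΔE2 and between -2.48 and -2.40 in ΔSE12313-b. Since the rows share reads, these values do not separate the short from the long forms.

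Tissue factor, the initiator that TFPI restrains, was scarcely expressed. F3 (NM_001993, chr1:94994732-95007413, minus strand) had an FPKM of 0.363 and 0.417 in the controls, 0.659, 0.441 and 0.831 in ΔE2, and 0.365, 0.594 and 0.211 in ΔSE12313-b. These values rest on 8 to 30 reads per library. The ΔE2 clones lay above both controls, while those of ΔSE12313-b lay on either side of them. The log2 change was 0.57 in ΔE2 (95% interval -0.39 to 1.53, limma adjusted p = 0.277) and -0.07 in ΔSE12313-b (-1.03 to 0.88, limma adjusted p = 0.887). A 2-fold rise lies inside the ΔE2 interval and a 2-fold fall inside that of ΔSE12313-b, so these values do not settle whether F3 changed by that much. TFPI exceeded F3 by 1029 and 890 times in FPKM in the controls, by 93.4 to 306 times in ΔE2 and by 93.5 to 396 times in ΔSE12313-b.

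**Figure D1:**
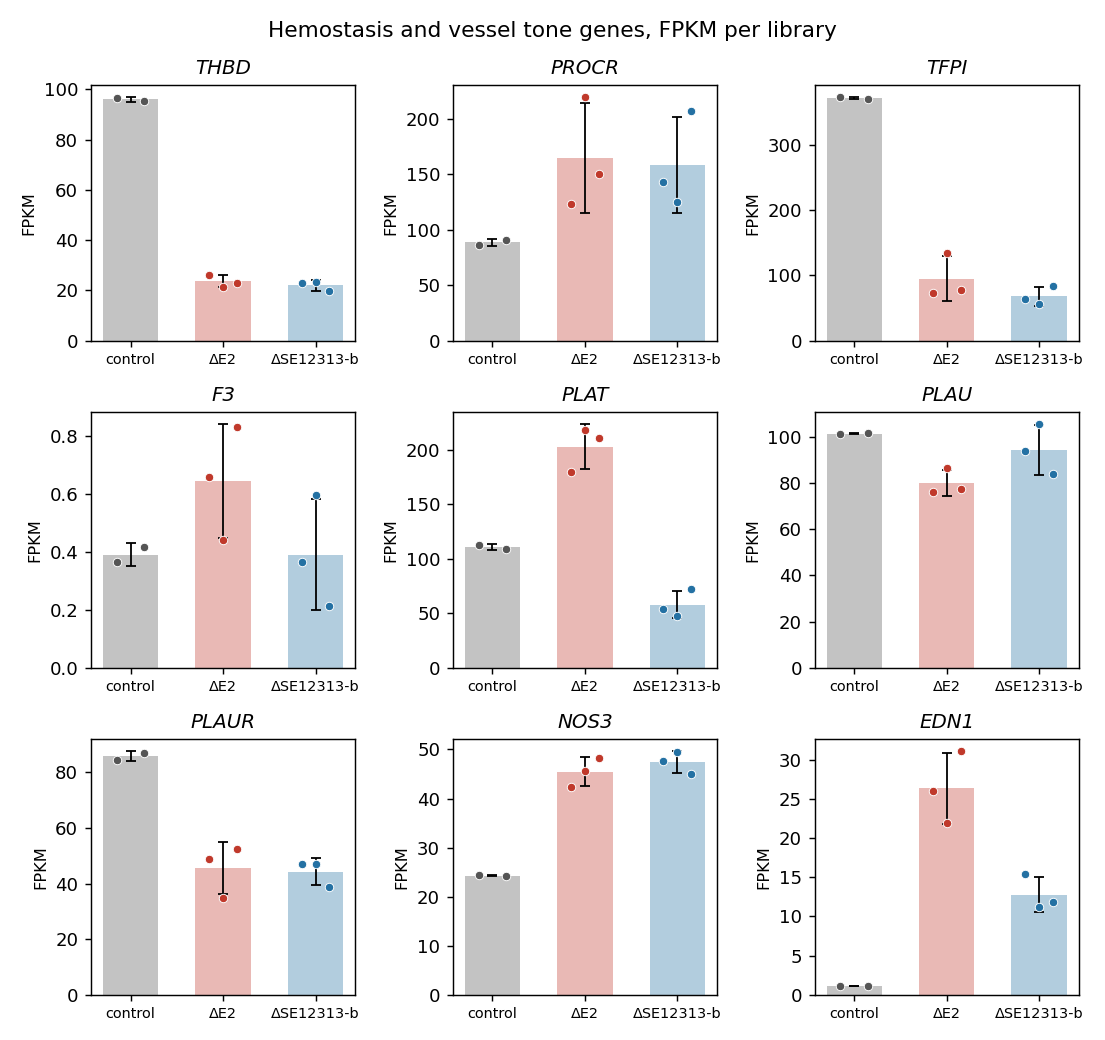
FPKM of the 9 genes (vertical axes, each from 0 and with its own scale) in control, ΔE2 and ΔSE12313-b libraries. Points are libraries, bars are means and whiskers are 1 SD (n = 2, 3 and 3). PLAT is the panel in which the 2 deletions lie on opposite sides of the controls, with a mean of 203 in ΔE2, 111 in control and 57.8 in ΔSE12313-b.

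Among the genes of plasmin formation, tissue plasminogen activator separated the deletions. PLAT (NM_000930, chr8:42032236-42065242, minus strand) had an FPKM of 112 and 109 in the controls, 179, 218 and 210.5 in ΔE2, and 53.6, 47.7 and 71.9 in ΔSE12313-b. The 3 groups did not overlap. PLAT rose 1.82-fold in ΔE2 (log2 change 0.87, SE 0.17, limma adjusted p = 0.00309) and fell 1.94-fold in ΔSE12313-b (log2 change -0.96, SE 0.17, limma adjusted p = 0.00158). Compared directly, ΔE2 clones had 3.55-fold more PLAT than ΔSE12313-b clones (log2 difference 1.83, SE 0.15, limma adjusted p = 0.000426), the larger of the 2 called differences among the 9 genes. With quantile normalization the changes were 0.40 in ΔE2 (limma adjusted p = 0.0412) and -1.53 in ΔSE12313-b. Its 3 transcripts gave log2 differences from 1.83 to 1.84.

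Urokinase changed less. PLAU (NM_001319191, chr10:75670859-75677258, plus strand) was at 101 and 102 in the controls, at 76.1, 86.5 and 77.3 in ΔE2, and at 94.1, 106 and 83.9 in ΔSE12313-b. The ΔE2 clones lay below the controls and the ΔSE12313-b clones spanned them. The log2 change was -0.35 in ΔE2 (SE 0.11, limma adjusted p = 0.0247) and -0.11 in ΔSE12313-b (95% interval -0.35 to 0.13, limma adjusted p = 0.399). Without either control, ΔE2 replicate 1 or ΔE2 replicate 3 the ΔE2 value was -0.35 to -0.31 and did not pass (limma adjusted p from 0.0684 to 0.110), and with quantile normalization it was -0.73. In ΔSE12313-b PLAU was -0.40 with each library centred and -0.64 with quantile normalization, and both passed (limma adjusted p = 0.0137 and 0.00413). The log2 difference between the deletions was -0.24 (limma adjusted p = 0.104), and -0.32 without ΔSE12313-b replicate 3 (0.0352). The value in ΔSE12313-b depended on scaling, and over the alternatives it ran from -0.64 to -0.03 with adjusted p from 0.00413 to 0.823.

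The urokinase receptor fell in each clone. PLAUR (NM_002659, chr19:44152723-44174498, minus strand) was at 84.5 and 87.0 in the controls, at 49.0, 34.9 and 52.6 in ΔE2, and at 47.0, 47.1 and 38.7 in ΔSE12313-b. The highest clone had 52.6 and the lowest control 84.5. The log2 change was -0.94 in ΔE2 (SE 0.17, limma adjusted p = 0.00262) and -0.96 in ΔSE12313-b (SE 0.17, limma adjusted p = 0.00196), close under the 2-fold limit. After centring each library, or after quantile normalization, PLAUR passed that limit in both deletions. The difference between the deletions was 0.02 on the log2 scale, with an interval from -0.34 to 0.38.

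Ratios within a library show the balance among these genes. PLAU exceeded PLAUR 1.20 and 1.17 times in the controls, 1.47 to 2.48 times in ΔE2 and 2.0 to 2.24 times in ΔSE12313-b. The ratio of PLAU to PLAT was 0.901 and 0.934 in the controls, 0.367 to 0.424 in ΔE2 and 1.17 to 2.21 in ΔSE12313-b. Tissue plasminogen activator was thus the more abundant transcript of the pair in the controls and in ΔE2, and urokinase in the 3 ΔSE12313-b clones.

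**Figure D2:**
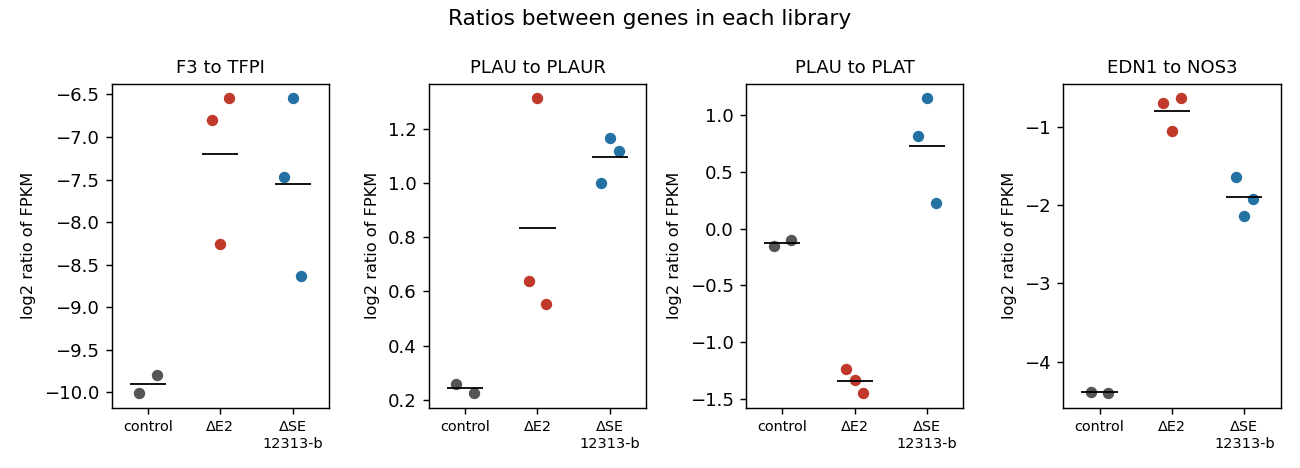
Ratio of FPKM between pairs of the genes on a log2 scale (vertical axes, not from 0) in each library. Points are libraries and lines are group means. PLAU to PLAT is below 0 in ΔE2 and above 0 in ΔSE12313-b, and EDN1 to NOS3 is highest in ΔE2 and lowest in the controls.

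Both genes of vessel tone rose. NOS3 (NM_001160109, chr7:150690892-150701023, plus strand) had an FPKM of 24.4 and 24.2 in the controls, 42.4, 45.7 and 48.3 in ΔE2, and 47.7, 49.4 and 44.9 in ΔSE12313-b. Clones of a deletion were within 1.14 times of each other, and none overlapped the controls. The log2 rise was 0.90 in ΔE2 (SE 0.08, limma adjusted p = 5.99e-05) and 0.96 in ΔSE12313-b (SE 0.08, limma adjusted p = 3.30e-05), below the 2-fold limit, and 0.57 and 0.50 with quantile normalization. The log2 difference between the deletions was -0.06, with an interval from -0.22 to 0.10. The kept transcript is a short form, and the full-length NM_000603 had a mean of 26.0, 42.3 and 46.1 in control, ΔE2 and ΔSE12313-b, with log2 changes of 0.70 and 0.83.

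The full-length NOS3 transcript ends inside ATG9B (NR_073169, chr7:150709297-150721586), which is read from the other strand and is known as an antisense partner that can lower NOS3. ATG9B is not a member, and was picked because of its values. It had an FPKM of 2.12 and 2.86 in the controls, from 103 and 132 reads, and 0 to 0.0580 in the 6 clones, from 0 to 3 reads. The log2 change of ATG9B was -4.40 in ΔE2 and -4.54 in ΔSE12313-b (SE 0.49 for both, limma adjusted p = 0.000208 and 0.000138). With so few reads in the clones, the added 0.1 limits the size of these changes. The control mean was 51.7 and 49.5 times the FPKM that 3 reads in each ΔE2 and ΔSE12313-b library would give. These multiples are not tested bounds, since ΔE2 replicate 3 itself had 3 reads and the spread of the controls is left out. The sources do not state how strands were counted. The clones had between 2590 and 3335 reads on the full-length NOS3 transcript beside these 0 to 3 on ATG9B. Whether the loss of ATG9B had a part in the rise of NOS3 was not tested.

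EDN1 changed most of the 9 genes. Its transcript (NM_001955, chr6:12290529-12297427, plus strand) was at 1.17 and 1.15 in the controls, from 31 and 29 reads, at 26.0, 21.9 and 31.1 in ΔE2, and at 15.4, 11.2 and 11.8 in ΔSE12313-b. The 3 groups did not overlap, and each ΔE2 clone exceeded each ΔSE12313-b clone. The rise on the log2(FPKM + 0.1) scale was 20.8-fold in ΔE2 (95% interval 15.7 to 27.5, limma adjusted p = 9.73e-07) and 10.2-fold in ΔSE12313-b (7.68 to 13.4, limma adjusted p = 3.47e-06). Between the deletions the difference was 2.05-fold (1.59 to 2.63, log2 difference 1.03, limma adjusted p = 0.00316). That difference is close to the 2-fold limit and fell under it without ΔE2 replicate 3, without ΔSE12313-b replicate 2 or without ΔSE12313-b replicate 3, with a log2 value of 0.91 at the lowest. NOS3 exceeded EDN1 by 20.9 and 21.1 times in the controls, by 1.56 to 2.09 times in ΔE2 and by 3.11 to 4.41 times in ΔSE12313-b.

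**Figure D3:**
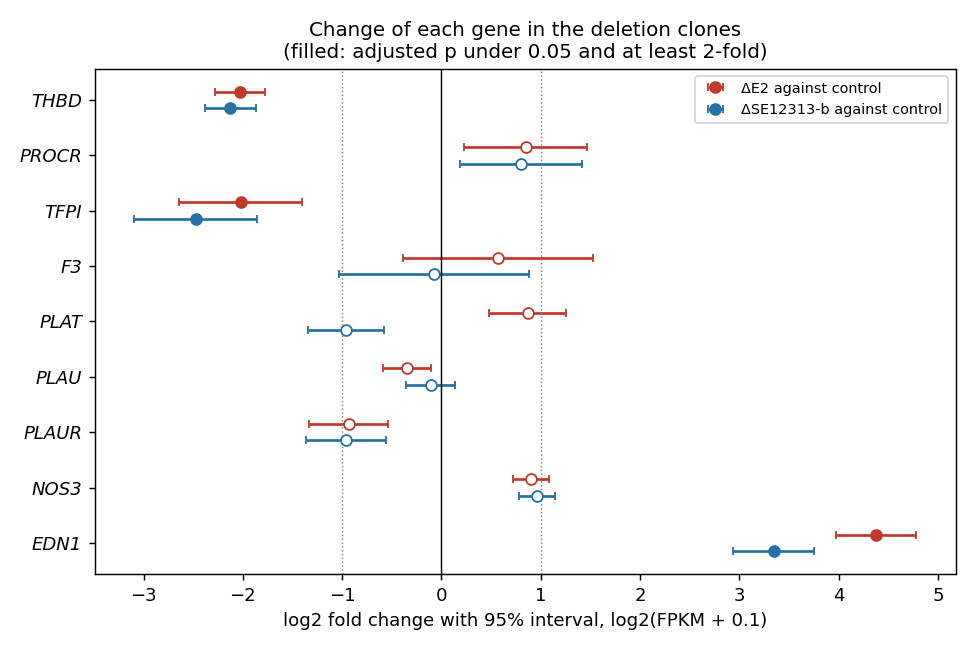
Log2 change of each gene against the controls (horizontal axis, log2(FPKM + 0.1)) with 95% intervals from limma, for ΔE2 and ΔSE12313-b. Filled points mark an adjusted p under 0.05 with at least a 2-fold change, and dotted lines mark 2-fold. EDN1 lies farthest right at 4.38 and 3.34. On the left are THBD at -2.03 and -2.13 and TFPI at -2.02 and -2.48.

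Set in order of FPKM, which is per length, the genes of the controls ran from TFPI (372) through PLAT (111), PLAU (101), THBD (96.0), PROCR (88.8) and PLAUR (85.8) to NOS3 (24.3), EDN1 (1.16) and F3 (0.390). PROCR and PLAUR overlapped, and no other neighbours did. In ΔE2 the order began with PLAT (203) and PROCR (165), which overlapped, and TFPI came after them at 95.2. THBD fell to the eighth place at 23.6, where it overlapped EDN1 at 26.3. In ΔSE12313-b PROCR (158) was first and PLAU (94.5) the next, without overlap, while TFPI (67.8) and PLAT (57.8) overlapped. EDN1 stood above 14.9% of the genes tested in the controls, 83.7% in ΔE2 and 65.1% in ΔSE12313-b.

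Other genes of these pathways were read from lists of 94 genes, of which 57 were tested. In ΔE2, 14 were called higher and 12 lower (45.6% of those tested), and in ΔSE12313-b 13 higher and 9 lower (38.6%), against the 19.6% and 22.6% of all genes given above. The median log2 change of the 57 genes was 0.01 and 0.06, below the 0.14 and 0.27 of all genes. The lists were drawn up with results of these data known, so the shares are a description. Means below are of 2 control, 3 ΔE2 and 3 ΔSE12313-b libraries, and the SE of the log2 changes of the genes of coagulation, plasminogen activation, nitric oxide and endothelin named below lay between 0.07 (ANXA2) and 0.45 (VTN).

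Of 22 genes of coagulation and its inhibitors, 16 were tested. In ΔE2 3 rose and 5 fell by at least 2-fold, and in ΔSE12313-b 1 rose and 4 fell. TFPI2, a relative of TFPI that inhibits plasmin and other proteases, fell from a mean of 2.96 to 0.259 in ΔE2 and 0.214 in ΔSE12313-b (log2 change -3.19 and -3.28, limma adjusted p = 0.000494 and 0.000346). VWF, the carrier of factor VIII that tethers platelets, fell from 1.92 to 0.537 and 0.515 (-1.72 and -1.80, limma adjusted p = 0.00771 and 0.00528). Without control replicate 1 the change of VWF in ΔE2 was -1.65 (limma adjusted p = 0.0551). SERPIND1 (heparin cofactor II, a thrombin inhibitor) fell from 16.1 to 7.36 and 4.41, and in ΔE2 its log2 change was -1.14, or -0.95 without ΔE2 replicate 2.

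Some genes of this list moved in 1 deletion more than in the other. THBS1, which encodes thrombospondin 1, a platelet and matrix protein, rose from 104 to 265 in ΔE2 (log2 change 1.34, limma adjusted p = 0.000245) and was at 119 in ΔSE12313-b (0.19, limma adjusted p = 0.309). The direct difference was 1.15 (limma adjusted p = 0.00149). SERPINE2, the thrombin inhibitor protease nexin 1, had means of 1.82, 1.10 and 0.376 in control, ΔE2 and ΔSE12313-b and was called lower in the last (log2 change -2.03, limma adjusted p = 0.000654). GAS6, a vitamin K dependent ligand of TAM receptors, fell from 4.07 to 1.54 in ΔE2 and 2.58 in ΔSE12313-b, where the change was under 2-fold.

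For plasminogen activation, 8 of 13 genes were tested, with 3 called higher and 1 lower in ΔE2 and 4 higher and 2 lower in ΔSE12313-b. ANXA2 and S100A10, which together form a cell surface receptor for PLAT and plasminogen, rose from 344 to 884 and 892 and from 71.3 to 222 and 202. ENO1, the glycolytic enzyme enolase that also binds plasminogen, rose from 400.1 to 885 and 902.

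LRP1, an endocytic receptor that clears plasminogen activators bound to their inhibitors, fell from 25.3 to 3.37 in ΔE2 and 5.58 in ΔSE12313-b (log2 change -2.88 and -2.19, limma adjusted p = 1.35e-05 and 4.32e-05). VTN (vitronectin, an adhesive glycoprotein that also binds PLAUR) had 1 to 4 reads per library in control and ΔE2 and 18 to 39 in ΔSE12313-b, where it was called higher (log2 change 2.05, limma adjusted p = 0.00539).

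Of 26 genes around nitric oxide, 19 were tested, and 6 were called higher and 1 lower in ΔE2, and 5 higher and 1 lower in ΔSE12313-b. The median log2 change of the list was 0.52 and 0.29, beside 0.14 and 0.27 for all genes. HSP90AA1, a chaperone that assists NOS3, rose from 244 to 649.9 and 861.

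CALM3 encodes calmodulin, which activates NOS3, and rose from a mean of 38.2 in the controls to 85.7 in ΔE2 and 109.8 in ΔSE12313-b. CAV1, the scaffold of caveolae that holds NOS3 inactive, rose from 120 to 431 in ΔE2 and 280 in ΔSE12313-b (log2 change 1.81 and 1.20, limma adjusted p = 0.000465 and 0.00304). ARG2, an arginase that competes for the substrate of NOS3, fell from 9.39 to 4.04 and 3.74. Without ΔE2 replicate 1 the log2 change of ARG2 in ΔE2 was -0.99, just under 2-fold. Both the restraining CAV1 and the activating CALM3 were thus higher in the clones, as NOS3 was.

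Of 8 endothelin genes, 4 were tested, and 1 was called in ΔE2 and 0 in ΔSE12313-b. MME (neprilysin), which degrades endothelins, fell from a mean of 165 to 36.4 in ΔE2 (log2 change -2.18, limma adjusted p = 2.95e-06) and to 108 in ΔSE12313-b (-0.61, limma adjusted p = 0.00173). The direct difference between the deletions was -1.57 (limma adjusted p = 0.000152). ECE1, the enzyme that releases active endothelin from its precursor, fell from 196 to 137 and 140 (log2 change -0.53 and -0.51, limma adjusted p = 0.0263 and 0.0279). Under quantile normalization both were called in ΔSE12313-b, MME at -1.16 and ECE1 at -1.05. In ΔE2 the highest EDN1 thus stood beside the lowest MME. EDNRB, the receptor that also clears endothelin, was not called, and EDN2, EDN3 and the receptor EDNRA did not enter the test.

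**Figure D4:**
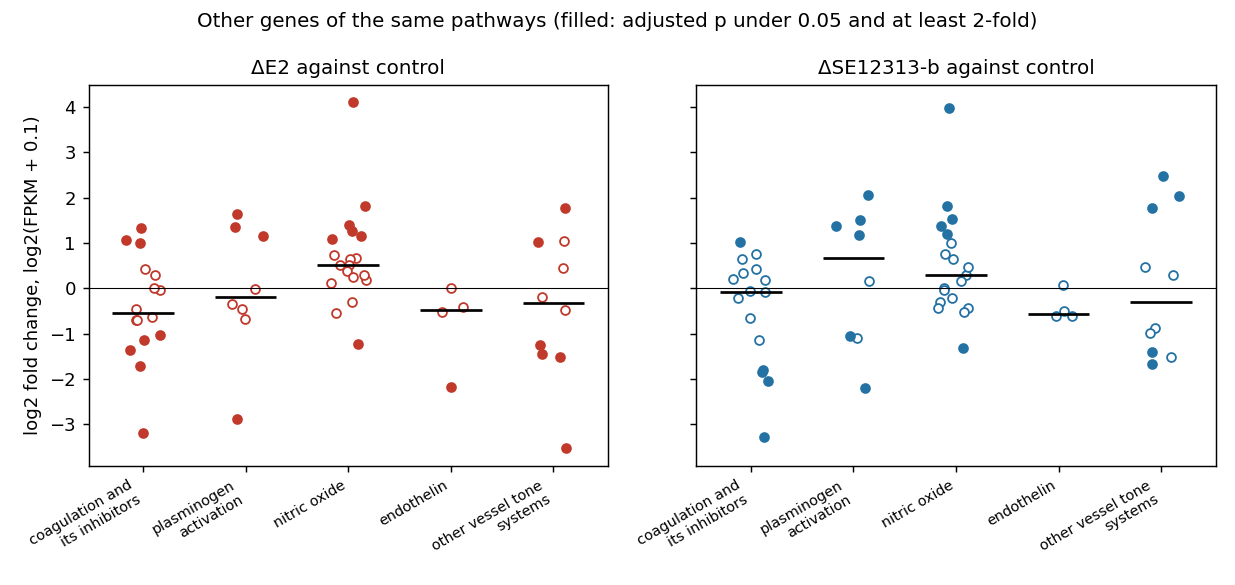
Log2 change against the controls (vertical axis, log2(FPKM + 0.1)) of the tested genes in 5 lists, for ΔE2 and ΔSE12313-b. Each point is a gene, filled where the adjusted p was under 0.05 with at least a 2-fold change, and bars are list medians. The nitric oxide list has the highest median in ΔE2, at 0.52, and coagulation the lowest, at -0.54.

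Markers of cell types moved beside these results. The summed FPKM of 14 endothelial markers was 557 to 562 in the controls, 815 to 1108 in ΔE2 and 766 to 1033 in ΔSE12313-b, with 4 and 3 of the 12 tested called higher and 1 lower in each. ICAM2 rose most in FPKM (means of 36.2, 247 and 236 in control, ΔE2 and ΔSE12313-b). PECAM1, TEK, ERG, ESAM, EGFL7 and ENG also had higher means in both deletions, and CDH5, TIE1 and VWF lower ones. ROBO4 and MCAM had higher means in ΔE2 and lower ones in ΔSE12313-b. The summed FPKM of 8 epithelial markers was 361 to 363, 1084 to 1210.1 and 811 to 1069, and it came from keratins, KRT18 among them (means of 148, 416 and 329), while CDH1 was listed at 0 and EPCAM stayed at 0.554 or below. Leukocyte markers summed to 28.2 to 30.1, 25.0 to 27.4 and 36.2 to 40.7, with CD3E at 0 and PTPRC at 0.0120 or below. Most of this sum was CD68 (means of 28.9, 24.4 and 37.5), and LYZ was called higher in ΔE2 (means of 0.212, 1.66 and 0.158, log2 change 2.40 in ΔE2). Fibroblast and muscle markers summed to 5.20 to 6.69, 0.701 to 2.07 and 1.01 to 1.79, with DCN and LUM at 0 and COL1A1 at 0.163 or below. The fall of this sum was that of ACTA2, smooth muscle actin, which was called lower in both deletions (means of 5.59, 0.860 and 0.924, log2 change -2.80 and -2.52). In bulk RNA, fewer cells of a kind and less RNA per cell cannot be told apart, and the part of these markers in the changes of the 9 genes was not tested. CDH5 was 141 in ΔE2 replicate 2 and 72.5 and 83.9 in the other ΔE2 clones, and 92.8 in ΔSE12313-b replicate 3 and 74.8 and 64.3 in the others, so the clones with the most PROCR and TFPI in each deletion also had the most CDH5.

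The surroundings of the genes were compared in the same contrasts. Within 1 Mb of EDN1, 4 other genes were tested, and 0 were called in ΔE2 and 1 in ΔSE12313-b. Around PLAT 16 genes were tested, and 0 were called between the deletions, with a median log2 difference of 0.09. Of 6 genes near TFPI, 2 were called in each deletion, of which 1 fell in ΔE2 and 0 in ΔSE12313-b. Arm medians were set against the median of the genes used for the arms. In ΔE2 these differences ran from -0.20 on the log2 scale (19q, with PLAUR) to 0.08 (6p, with EDN1). In ΔSE12313-b the arm of PLAU, 10q, stood 0.45 above that median. PLAU itself had a log2 change of -0.11, or -0.38 relative to the median of all genes tested. PLAU overlaps C10orf55 and PROCR lies in the span of MMP24-AS1-EDEM2, both on the other strand, at mean FPKM of 0.274 to 0.454 and 23.9 to 34.9 over the groups.

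The genes whose pattern over the 8 libraries was most like that of a member were found by Pearson's r of log2(FPKM + 0.1), as a description. Since the controls differ from the clones in many genes, high values are common. They were RAB8A and ZGRF1 for EDN1 (r = 0.997 for both), MED20 and NIPA2 for NOS3 (0.998 for both), PAPPA2 and SS18L1 for THBD (0.997 and 0.996), and STK16 and RIN2 for TFPI (0.996 and 0.995). For PROCR they were HYAL2 and TM4SF18 (0.993 and 0.990), for PLAUR KLC2 and BACH1 (0.988 and 0.983), and for F3 AOX1 and RIOX2 (0.989 and 0.988). PLAT, with its opposite directions, was most like HOPX and EPB41L2 (0.994 and 0.993), and PLAU like C1D and SCAMP1 (0.991 and 0.973).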

How the data were processed

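RNA-seq of 8 EA.hy926 libraries was analysed. The sources state that reads were trimmed with Trim Galore 0.4.4 and mapped to GRCh37 with STAR 2.5.4b. The deposited table holds FPKM values that the authors computed for 65572 RefSeq transcripts, which are reads divided by transcript length and library size. The tool, RefSeq release and strand setting behind this table are not given in the sources used here. The libraries were made with a directional kit.

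The FPKM were used as deposited. Each gene was represented by its transcript of highest mean. A gene entered the test when 2 or more libraries reached an FPKM of 0.5. The model was fitted by limma 3.58.1 (R 4.3.3) to log2(FPKM + 0.1) (3 groups in 1 model, empirical Bayes with trend, two-sided), with Benjamini-Hochberg adjustment over all genes tested. Fold changes on this scale understate those of low genes. A called gene had an adjusted p under 0.05 and at least a 2-fold change. FPKM are whole multiples of 1 read, and 99.97 to 99.99% of the values checked came out whole within 0.1 read, which gave reads per library and transcript. The count model of the study was not run as the main test because the table holds FPKM. The steps were tested on simulated counts with the same spread for all genes and groups. Clones and controls differed in spread here, and the simulation does not cover that difference.

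The members and gene lists were chosen with earlier results of these data known. Named from each list were genes called in either deletion, at most 6 by the size of the change, and VWF, TFPI2, ECE1 and CAV1 whatever their values; some genes that this rule names are not reported here. For each member the 2 genes most alike were named. Alternatives were pseudocounts of 0.01 and 1, filters (FPKM above 0 in 2 libraries, mean FPKM of at least 1), centring, quantile normalization, a replicate block, no trend, the longest or every transcript, only the groups compared, each library left out, limma's voom on the recovered reads, 1.5-fold and an adjusted p under 0.01.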

Additional observations from a re-analysis of the deposited data

Results flagged for a closer look

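For 2 of the 9 genes the effects of the deletions differed from each other in a direct test of ΔE2 against ΔSE12313-b clones by limma. EDN1 was higher in ΔE2 by 1.03 on the log2 scale (adjusted p = 0.00316), with each of the 3 ΔE2 clones above each of the 3 ΔSE12313-b clones. PLAT was higher in ΔE2 by 1.83 (adjusted p = 0.000426), likewise in 3 of 3 clones, with the ΔE2 clones above and the ΔSE12313-b clones below the controls. The cause of either difference was not tested.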

How the results depend on the processing

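EDN1, THBD and TFPI kept their calls in both deletions under all 22 alternatives, as did PLAT between the deletions. The members called against control were 3 in both deletions, beside 2697 and 3112 of 13790 genes. At 1.5-fold they were 7 in both, beside 5054 and 5802 genes. In ΔSE12313-b they were 5 with each library centred and 5 with quantile normalization, where PLAT and PLAUR passed 2-fold. Beside these, 2771 and 2798 genes were called. Between the deletions 2 were called (583 genes), 1 with a pseudocount of 1 (240 genes), and 1 to 2 with 1 library left out (478 to 669 genes). The replicate numbers share no more than a number (correlations of same-numbered libraries from -0.08 to 0.11). With a replicate block 3, 4 and 2 members were called in ΔE2, in ΔSE12313-b (PLAT added) and between the deletions. Over all 13790 genes tested, 2530, 2962 and 523 were called with this block. Directions turned for values that had not passed the test: F3 in ΔSE12313-b was 0.32 with quantile normalization and -0.36 to 0.22 with 1 library left out, THBS1 in ΔSE12313-b was -0.094 when centred and -0.36 with quantile normalization, and NOS3 between the deletions was 0.070 when centred and 0.075 with quantile normalization. Between the deletions, with 1 library left out, PLAUR ran from -0.093 to 0.20 and PROCR from -0.18 to 0.26. Calls of pathway genes named here that lost the 2-fold limit with centring or quantile normalization in a deletion were ENO1, CALM3, CAV1, ADM and THBS1, all still higher there. In ΔSE12313-b quantile normalization added calls of MME, ECE1 and PLA2G4A, the last also with centring. A pseudocount of 1 took below 2-fold VWF (-0.94 and -0.96 in ΔE2 and ΔSE12313-b) and TBXA2R (0.52 and 0.85), GAS6 (-0.998) and ADM (0.81) in ΔE2, and VTN (0.84), ENTPD1 (0.81) and ADORA2A (-0.85) in ΔSE12313-b, and between the deletions SERPINE2 (0.60) and VTN (-0.98). F3 left the test at a mean FPKM of at least 1. Genes called over the table were 2697, 3112 and 583, with 1718, 2004 and 240 at a pseudocount of 1, 5054, 5802 and 1631 at 1.5-fold, 7364, 8673 and 1649 of 40219 transcripts, and 383 between the deletions at an adjusted p under 0.01. Centring turned 1544 higher and 1153 lower in ΔE2 into 1170 and 1464, and 2032 and 1080 in ΔSE12313-b into 1201 and 1570, and quantile normalization gave 1309 and 1385, and 1400 and 1398. Relative to the median of all genes, the log2 change in ΔE2 and ΔSE12313-b was 0.76 and 0.69 for NOS3, 0.73 and -1.23 for PLAT, and -1.08 and -1.23 for PLAUR. With a replicate block PROCR did not pass in either deletion (0.76 and 0.72, limma adjusted p = 0.0701 and 0.0770). Of the 9 genes F3 had the fewest reads, 8 to 30 per library.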

Other observations

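Vessel tone is also set by prostanoids, nucleotides, adenosine and peptides of the adrenomedullin family. Of 25 such genes 10 were tested, with 2 called higher and 4 lower in ΔE2 and 3 higher and 2 lower in ΔSE12313-b. ADM (adrenomedullin, a peptide that relaxes vessels) rose from a mean FPKM of 2.47 to 5.11 and 8.67 (log2 change 1.01 and 1.77, limma adjusted p = 0.000247 and 1.20e-05). The ΔE2 value was 0.93 without ΔE2 replicate 1 and 0.98 without control replicate 2. Its receptor gene CALCRL had 6.02 and 5.24 in the controls, 0.145, 2.62 and 0.0840 in ΔE2, and 1.44, 1.01 and 4.70 in ΔSE12313-b. The clones that stood apart, ΔE2 replicate 2 and ΔSE12313-b replicate 3, were again the highest, and the log2 change in ΔE2 was -3.52 with ΔE2 replicate 2 and -4.75 without it (limma adjusted p = 0.0287 and 0.000926). Leaving out another ΔE2 clone or either control gave -3.62 to -2.81 with an adjusted p from 0.0832 to 0.126.

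PLA2G4A, the phospholipase that frees arachidonic acid for prostanoids, fell from 29.6 to 10.6 in ΔE2 and 15.1 in ΔSE12313-b, by less than 2-fold in the latter (log2 change -0.98, or -1.07 without ΔSE12313-b replicate 1, -1.27 with each library centred and -1.41 with quantile normalization, all of these past 2-fold but the first). TBXA2R, the thromboxane receptor, had 1 and 4 reads in the controls and 11 to 33 in the clones, and was called higher in both (log2 change 1.77 and 2.47). Without control replicate 1 the ΔE2 change was 1.30 (limma adjusted p = 0.0635). ENTPD1 (CD39), which breaks down ADP and ATP, was called higher in ΔSE12313-b (log2 change 2.03, limma adjusted p = 0.00851), and ADORA2A, an adenosine receptor, lower there (-1.66, limma adjusted p = 0.0171), each from 65 reads or fewer per library. Neither passed without certain libraries: ENTPD1 had an adjusted p of 0.0576 without control replicate 2, and ADORA2A one of 0.131 without control replicate 1 and 0.0511 without ΔSE12313-b replicate 1. In ΔE2 ENTPD1 had a log2 change of 1.04 (limma adjusted p = 0.112), and 1.47 without ΔE2 replicate 1 (limma adjusted p = 0.0222). PTGS2 and PTGIS, which make prostacyclin, did not enter the test. PTGS1, related to PTGS2, was tested and not called in either deletion (means of 4.46, 6.36 and 5.62 in control, ΔE2 and ΔSE12313-b).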
